A study of Mus musculus with 6 samples.

Results

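The unfolded protein response and the integrated stress response were followed through 34 genes, which were chosen by symbol for their known place in these pathways, with earlier results of these data known. All 34 were among the 56092 gene symbols of the count table, and all 34 passed the filter on low counts. They comprised 6 stress sensors and transcription factors (Ern1, Eif2ak3, Atf6, Xbp1, Atf4 and Atf5), 12 genes of the ATF4 arm and 16 genes of the ATF6/XBP1 arm. The ATF4 arm held 5 stress effectors (Ddit3, Trib3, Chac1, Ppp1r15a and Ddit4) and 7 genes of amino acid supply (Asns, Psat1, Phgdh, Shmt2, Mthfd2, Slc7a5 and Slc3a2). The ATF6/XBP1 arm held 13 chaperones and folding factors (Hspa5, Hsp90b1, Hyou1, Dnajb9, Dnajc3, Pdia3, Pdia4, Pdia6, Calr, Canx, Sdf2l1, Creld2 and Manf) and 3 genes of endoplasmic reticulum (ER)-associated degradation (Herpud1, Edem1 and Sel1l).

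The genes were measured by poly(A) RNA-seq in RAW264.7 cells, a mouse macrophage line, with 3 libraries from cells carrying a control shRNA (shNC) and 3 from cells carrying an shRNA against Trem2 (shTrem2). The cells of both groups were kept in 20 ng/mL IL-4 for 24 hours, and then with debris of TCMK-1 cells, a mouse kidney tubular epithelial line, for a further 24 hours. No library without IL-4 or without debris was analysed here, so each difference is one between shRNAs in IL-4-treated, debris-fed cells. Each group was a puromycin-selected lentiviral line that also carried GFP, and the study's methods list a pair of Trem2 shRNAs without saying which the sequenced line carried. The shRNA and the line therefore cannot be told apart. The labels number the replicates without naming separate cultures, so p-values measure only the spread between these libraries, which may be technical.

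In the unfolded protein response, misfolded protein in the ER lumen activates membrane-bound sensors. Ern1 (IRE1) splices Xbp1 mRNA, Atf6 is cut to release a transcription factor, and both outputs raise chaperones and degradation factors. Eif2ak3 (PERK) phosphorylates eIF2, as other kinases do on amino acid or haem shortage. This phosphorylation, the core of the integrated stress response, lowers general translation while raising translation of Atf4 and Atf5, whose products switch on genes of amino acid synthesis and import, redox balance and, under long stress, cell death. Splicing, cleavage and translation are not read by the mRNA levels given here. In macrophages these pathways are known for matching folding capacity to secretion and for shaping cytokine output and survival.

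The total estimated count per library ranged from 16054486 to 19835186. Trem2, the targeted gene, was measured at 114, 122 and 144 CPM (counts scaled to library size by TMM) in shNC and at 64.7, 63.2 and 80.2 CPM in shTrem2, with no overlap (log2 fold change -0.87, SE 0.094, adjusted p = 3.39e-06 edgeR, quasi-likelihood test, Benjamini-Hochberg adjusted over all genes, as throughout). With an offset for effective transcript length its log2 fold change was -2.06. Of 10 macrophage markers 9 were tested, of which 7 were higher and 2 lower in shTrem2, and their summed level was 5583 to 6580 CPM in shNC and 10686 to 12083 CPM in shTrem2. Most of the rise of this sum came from Lyz2, whose mean went from 2805 to 7365 CPM (log2 fold change 1.39). The 2 lower markers were Adgre1 (log2 fold change -0.56) and Itgam (-0.78), so the sum does not stand for every marker. Of 14 tubular epithelial markers, the cell type of the debris, 8 had no counts in any library, and the summed level of the 14 was 0.88 to 1.43 CPM in shNC and 2.21 to 2.82 CPM in shTrem2. Only Aqp1 passed the filter on low counts. Its shTrem2 libraries held 1.98, 2.61 and 2.01 CPM, against 0.75, 0.33 and 0.27 for the control shRNA. The higher sum thus followed Aqp1 and was not a rise across the list. The part of either marker list in the results was not tested. In bulk RNA, fewer cells of a type and less RNA per cell cannot be told apart. One library, shTrem2 replicate 3, stood apart for these genes. It was the lowest of the 3 shTrem2 libraries for all 6 sensors and transcription factors and all 12 ATF4-arm genes, and the highest for 13 of the 16 ATF6/XBP1-arm genes, while among all tested genes it was the lowest for 36.6% and the highest for 35.9%. This was noticed after the values were seen, and results that rest on this library are given with and without it.

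Compared with shNC, shTrem2 cells had higher mRNA levels of Atf4 and of most amino acid supply genes, lower Xbp1, and ER chaperones that went both ways by small amounts. DEGs were genes with a false discovery rate (FDR, the adjusted p) under 0.05 and a fold change over 1.5. Of the 34 genes, 4 were DEGs with higher levels in shTrem2 (Atf4, Psat1, Shmt2 and Slc7a5) and 0 were DEGs with lower levels, beside 9.46% and 12.4% of the 13528 genes tested. DESeq2 and limma-voom gave the same counts of 4 and 0, and at an unadjusted p under 0.05 in edgeR 13 were higher and 9 lower. At an FDR under 0.05 with no fold threshold, 12 of the 34 rose (35.3%) and 7 fell (20.6%), beside 28.8% and 28.6% of all tested genes. Scaled by library size only, 11 rose and 10 fell. The remaining 15 did not pass, while 57.4% of all tested genes did pass in either direction. The 2 groups did not overlap for 18 of the 34, beside 63.8% of all tested genes. With TMM scaling, the share of the 34 that rose was thus somewhat above that of all genes, and the share that fell below it. Neither difference was tested. The ATF4 arm had 6 rises and 1 fall, and the ATF6/XBP1 arm had 4 of each.

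**Figure D1:**
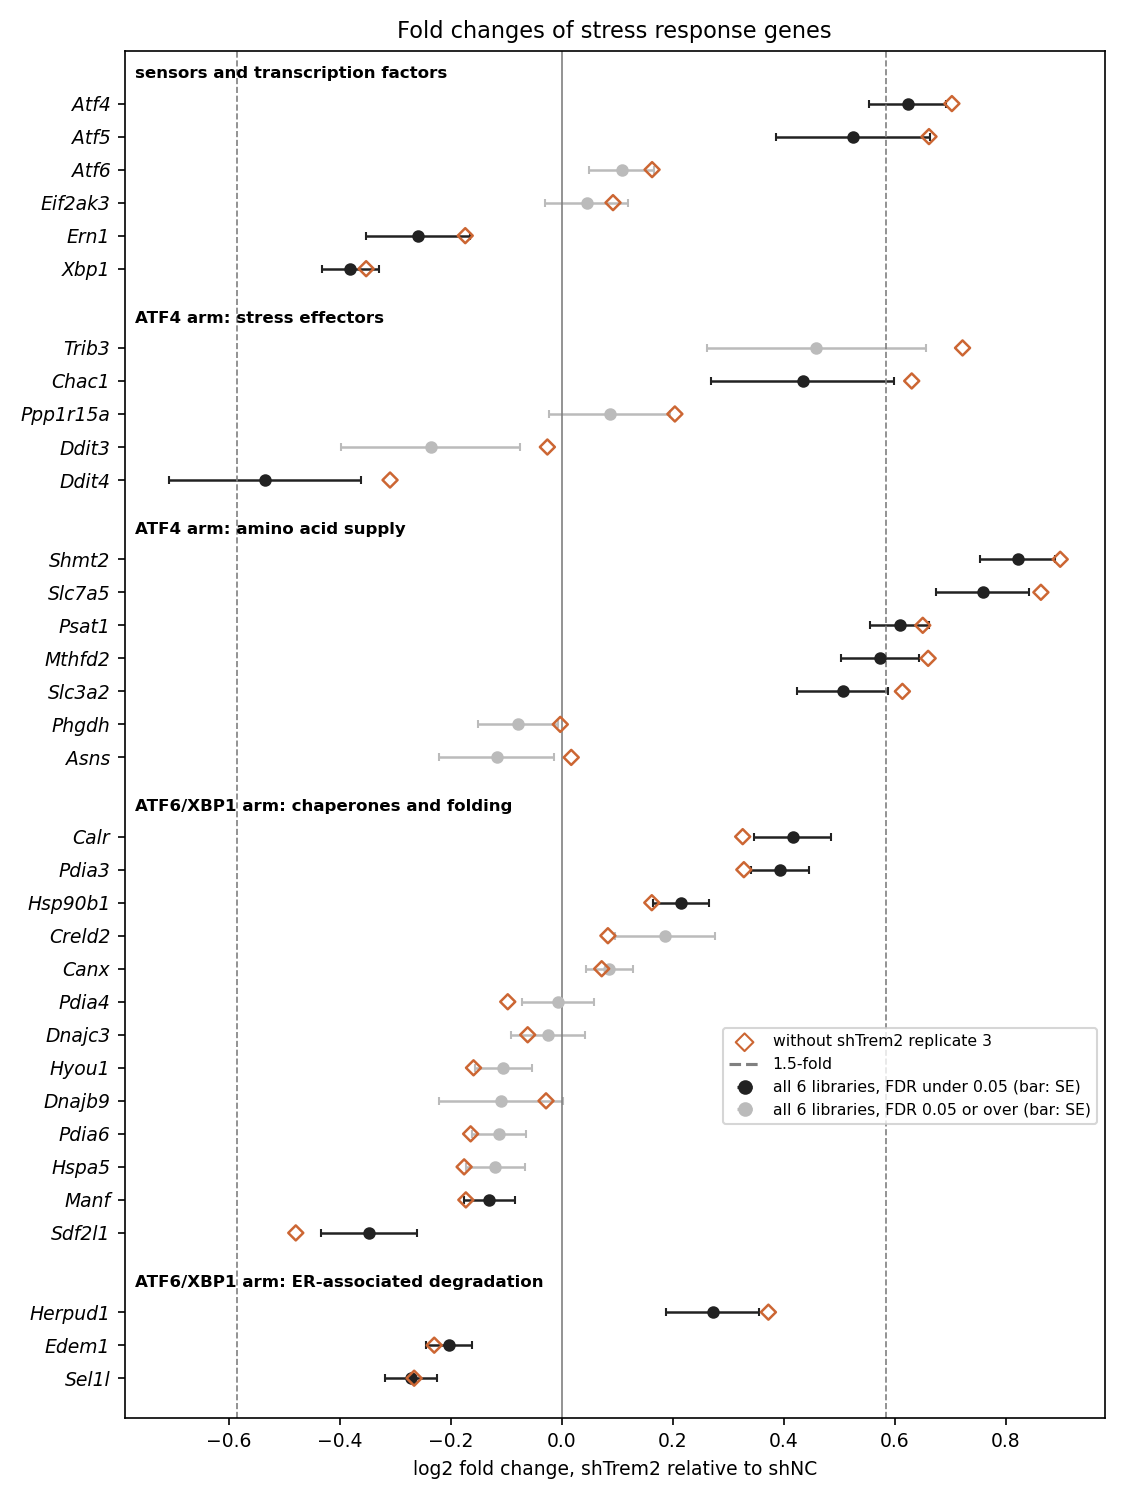
Fitted log2 fold change of each gene, shTrem2 relative to shNC, by role, with SE bars over all 6 libraries (black, FDR under 0.05; grey, FDR 0.05 or over) and open diamonds for the fit without shTrem2 replicate 3; dashed lines mark a 1.5-fold change. The largest rises were Shmt2 (0.82) and Slc7a5 (0.76), and no gene of the ATF6/XBP1 arm reached the dashed lines.

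Among the transcription factors, Atf4, the central activator of the integrated stress response, rose 1.54-fold. Its level was 244, 243 and 265.2 CPM in shNC replicates 1 to 3 and 409, 413 and 338 CPM in shTrem2 replicates 1 to 3. All shTrem2 libraries lay above all shNC libraries (log2 fold change 0.62, SE 0.069, adjusted p = 4.42e-06). Leaving out shTrem2 replicate 1 or 2 brought its log2 fold change to 0.58, just under the fold threshold, with the adjusted p still at 7.94e-05 and 3.07e-05. Atf5, a related activator that is also controlled by eIF2 phosphorylation, was measured at 24.9, 27.1 and 30.6 CPM in shNC and at 37.1, 50.7 and 31.3 CPM in shTrem2. The groups did not overlap, although shTrem2 replicate 3 lay close to the highest shNC library (log2 fold change 0.53, SE 0.139, adjusted p = 0.00523). Its log2 fold change was 0.31 without shTrem2 replicate 2, the highest library, and 0.66 without shTrem2 replicate 3. On FPKM its adjusted p was 0.0571 with a pseudocount of 1 and 0.0546 with a pseudocount of 0.1.

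Xbp1, the transcription factor that IRE1 activates by splicing, fell in shTrem2. It was measured at 175, 182 and 189 CPM in shNC and at 140, 147 and 133 CPM in shTrem2, with every shTrem2 library below every shNC library (log2 fold change -0.38, SE 0.051, adjusted p = 2.60e-05). This call held under each of the 17 alternative settings run for single genes, with log2 fold changes from -0.44 to -0.35. Ern1, the sensor that splices Xbp1, was at 46.5, 47.4 and 40.9 CPM in shNC and at 36.7, 43.4 and 32.6 CPM in shTrem2. Replicate 2 of shTrem2 lay above replicate 3 of shNC, so the groups overlapped (log2 fold change -0.26, SE 0.094, adjusted p = 0.0302). The Ern1 call was lost when shNC replicate 1 (adjusted p = 0.079), shNC replicate 2 (0.104), shTrem2 replicate 1 (0.0953) or shTrem2 replicate 3 (0.108) was left out, on FPKM with either pseudocount (0.382 in both), and with the offset for effective length, where its log2 fold change was -0.11 (adjusted p = 0.417).

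The other sensors did not pass the test. Eif2ak3, the PERK kinase, was at 29.3, 30.7 and 29.0 CPM in shNC and at 30.4, 33.2 and 28.2 CPM in shTrem2, and the groups overlapped (log2 fold change 0.04, adjusted p = 0.631). Atf6 was at 316, 324 and 315 CPM in shNC and at 343, 374 and 312 CPM in shTrem2, where replicates 1 and 2 lay above all shNC libraries and replicate 3 below them (log2 fold change 0.11, adjusted p = 0.130). Without shTrem2 replicate 3, Atf6 passed with a log2 fold change of 0.16 (adjusted p = 0.00869).

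**Figure D2:**
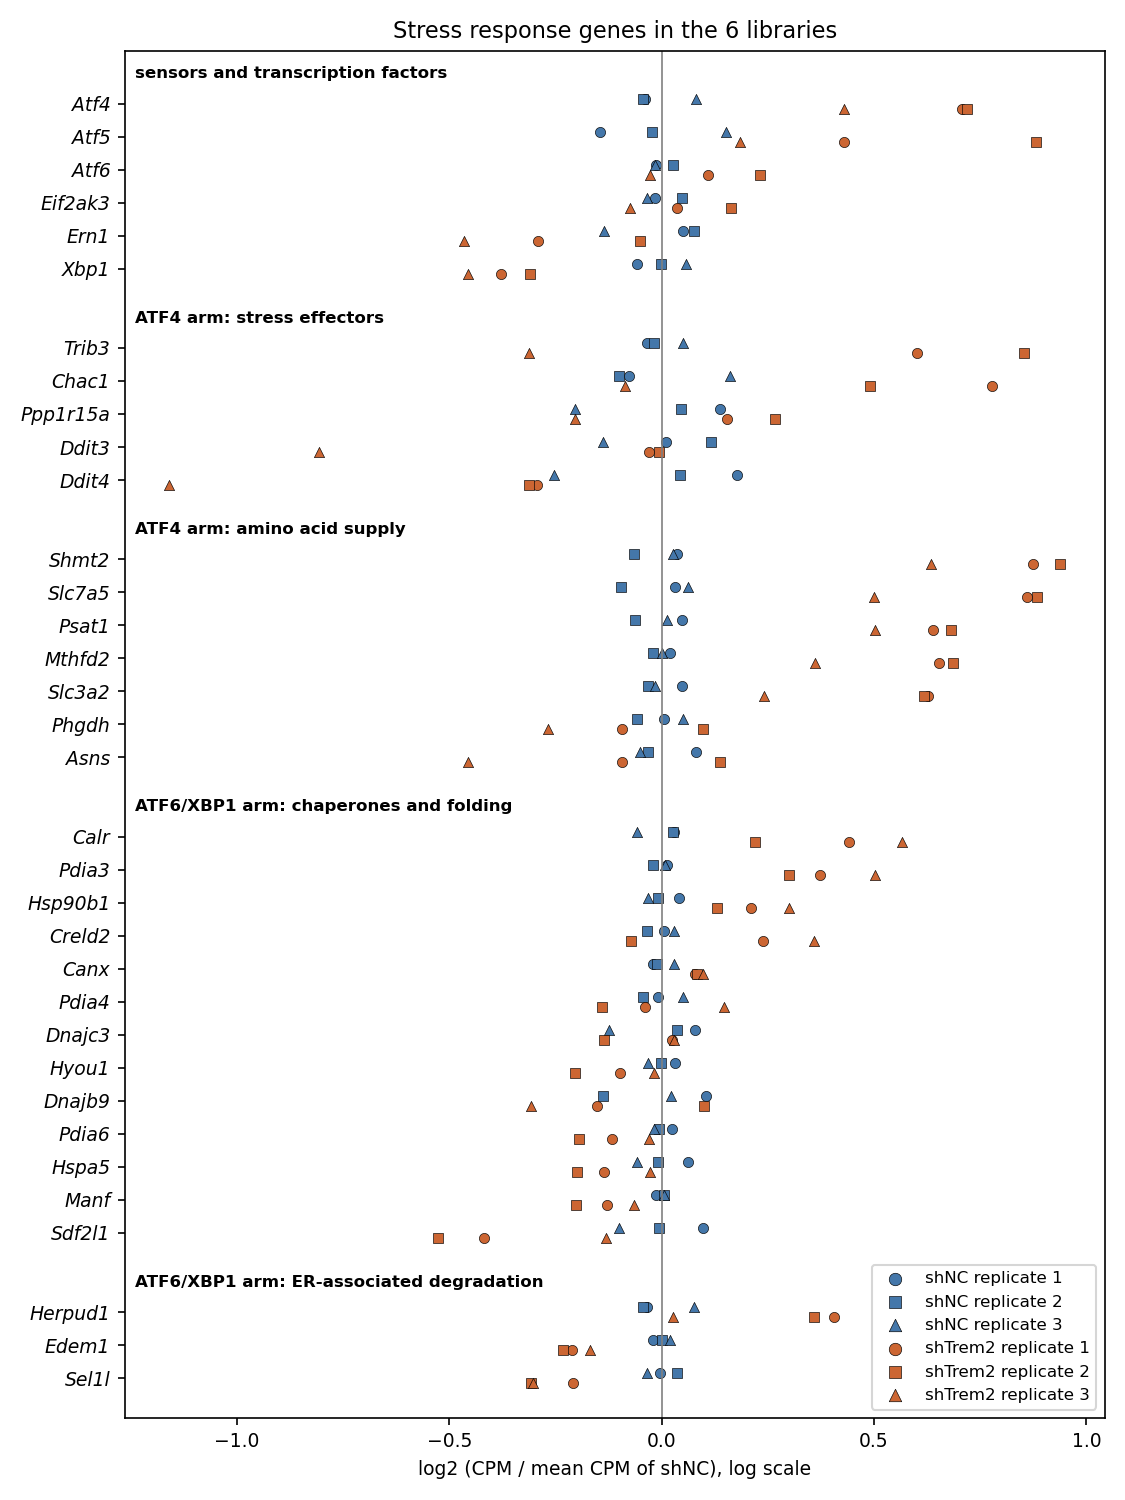
Level of each gene in each of the 6 libraries, as log2 of its CPM over the mean CPM of shNC (blue, shNC; orange, shTrem2; the marker shape gives the replicate). For the amino acid supply genes Shmt2, Slc7a5, Psat1, Mthfd2 and Slc3a2 all 3 orange markers lie to the right of all blue ones, and the orange triangle, shTrem2 replicate 3, lies furthest left among the orange markers for every gene of the ATF4 arm.

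Rows of the count table split each gene by transcript, without transcript names, so spliced and unspliced Xbp1 were not analysed here. For Atf4, 1 row held 94.0% of the counts and averaged 233 ± 13.7 CPM over shNC and 364 ± 43.9 CPM over shTrem2 libraries (SD, n = 3, scaled to the library total). The row with 5.89% of the Atf4 counts was at 20.5 ± 2.79 and 17.6 ± 2.60 CPM, so it did not share the higher level. For Xbp1, the row with 78.7% of the counts was at 143 ± 5.03 and 110 ± 3.31 CPM, and a row with 12.6% was at 27.0 ± 1.30 and 14.0 ± 3.03 CPM. Both Xbp1 rows were lower in shTrem2, by log2 ratios of -0.38 and -0.94. No test was run on single rows.

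The genes of amino acid supply were the group with the largest rises. Of the 7 genes 5 rose (71.4%) and none fell at an FDR under 0.05, beside 28.8% and 28.6% of all tested genes. The median log2 fold change was 0.57, beside a median of -0.00 over all tested genes. Shmt2, the mitochondrial serine hydroxymethyltransferase that passes a one-carbon unit from serine to folate, rose 1.77-fold. It was at 271, 253 and 269 CPM in shNC and at 484, 506 and 410 CPM in shTrem2, with a wide gap between the groups (log2 fold change 0.82, SE 0.067, adjusted p = 2.49e-07). Slc7a5, the light chain of the LAT1 transporter that imports leucine and other large neutral amino acids, rose 1.69-fold. Its level was 125, 115 and 128 CPM in shNC and 223, 226 and 174 CPM in shTrem2, again without overlap (log2 fold change 0.76, SE 0.084, adjusted p = 4.42e-06). Both were DEGs under each of these 17 settings.

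Psat1, the aminotransferase of the serine synthesis pathway, rose 1.53-fold, from 421, 390 and 411 CPM in shNC to 634, 653 and 577 CPM in shTrem2 (log2 fold change 0.61, SE 0.053, adjusted p = 4.45e-07). All its shTrem2 libraries lay above all shNC libraries, and its adjusted p stayed under the threshold in all 17 settings, but it exceeded 1.5-fold in 12 of them. Without shNC replicate 2 or shTrem2 replicate 2, with library size only and on FPKM with either pseudocount its log2 fold change was 0.55 to 0.57. Mthfd2, a mitochondrial folate dehydrogenase that acts after Shmt2, was at 171, 167 and 169 CPM in shNC and at 266, 272 and 217 CPM in shTrem2. Its groups did not overlap, and its 1.49-fold rise fell just short of the fold threshold (log2 fold change 0.57, SE 0.070, adjusted p = 1.09e-05). Slc3a2, the heavy chain that partners Slc7a5, rose 1.42-fold (log2 fold change 0.51, adjusted p = 1.25e-04) and did not overlap between groups. When shTrem2 replicate 3 was left out, Mthfd2 (log2 fold change 0.66) and Slc3a2 (0.61) were DEGs.

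The other 2 genes of this group did not pass. Asns, asparagine synthetase and a standard ATF4 target, ranged from 306 to 335 CPM in shNC and from 231 to 348 CPM in shTrem2 (log2 fold change -0.12, adjusted p = 0.355). Phgdh, which catalyses the first step of serine synthesis ahead of Psat1, ranged from 417 to 449 CPM in shNC and from 360 to 464 CPM in shTrem2 (log2 fold change -0.08, adjusted p = 0.370). For both genes the highest library was shTrem2 replicate 2 and the lowest shTrem2 replicate 3. Without replicate 2 both passed as lower, at log2 fold changes of -0.26 for Asns (adjusted p = 0.0202) and -0.17 for Phgdh (adjusted p = 0.0231). Without replicate 3 the values were 0.02 and -0.00.

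The 5 stress effectors showed no common direction, with 1 rising and 1 falling at an FDR under 0.05 (20% each, beside 28.8% and 28.6% of all tested genes). Their median log2 fold change was 0.09. Ddit4 (REDD1), a stress-induced inhibitor of mTORC1, fell 1.45-fold. It was at 40.6, 37.0 and 30.1 CPM in shNC and at 29.3, 28.9 and 16.1 CPM in shTrem2, where replicates 1 and 2 lay just below the lowest shNC library and replicate 3 far below (log2 fold change -0.53, SE 0.172, adjusted p = 0.0167). The Ddit4 call was lost in 6 of the 17 settings, without shNC replicate 1 (adjusted p = 0.0655) or 2 (0.0514), with DESeq2 (0.147), on FPKM with either pseudocount (0.0693 and 0.0684) and with the offset for effective length (0.0527). Without shTrem2 replicate 3 its log2 fold change was -0.31 (adjusted p = 0.0213). Chac1, an enzyme that degrades glutathione, was at 17.0, 16.7 and 20.0 CPM in shNC and at 30.7, 25.1 and 16.8 CPM in shTrem2. Replicate 3 of shTrem2 lay within the shNC range (log2 fold change 0.43, SE 0.165, adjusted p = 0.0366). The call was lost in 9 of the 17 settings: without shNC replicate 1 (0.105) or 2 (0.127), without shTrem2 replicate 1 (0.230) or 2 (0.0884), with limma-voom (0.0736), with library size only (0.051), on FPKM with either pseudocount (0.184 and 0.181) and with the offset for effective length (0.0846). When shTrem2 replicate 3 was left out, Chac1 was a DEG (log2 fold change 0.63, adjusted p = 1.77e-04).

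Trib3, a pseudokinase induced by ATF4 that binds AKT, had the largest SD relative to its mean among the 34 genes in shTrem2 (15.9 CPM on a mean of 42.6 CPM). It was at 30.3, 30.6 and 32.1 CPM in shNC and at 47.0, 56.0 and 25.0 CPM in shTrem2. Replicates 1 and 2 of shTrem2 lay above every shNC library and replicate 3 below every one, at 48.5% of the mean of the other 2 (log2 fold change 0.46, SE 0.198, adjusted p = 0.0623). Without shTrem2 replicate 3, Trib3 rose by 0.72 on the log2 scale (adjusted p = 3.48e-06). Ddit3 (CHOP), a transcription factor linked to death under long ER stress, was at 21.5, 23.1 and 19.4 CPM in shNC and at 20.9, 21.3 and 12.2 CPM in shTrem2. Only shTrem2 replicate 3 lay outside the shNC range (log2 fold change -0.24, adjusted p = 0.230). With that library left out, the log2 fold change of Ddit3 was -0.03 (adjusted p = 0.839). Ppp1r15a (GADD34), the subunit that directs a phosphatase to eIF2, ranged from 42.2 to 53.4 CPM in shNC and from 42.2 to 58.5 CPM in shTrem2 (log2 fold change 0.09, adjusted p = 0.519).

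Over the whole ATF4 arm, 6 of 12 genes rose (50%) and 1 fell (8.33%) at an FDR under 0.05, beside 28.8% and 28.6% of all tested genes, 3 being DEGs, and the median log2 fold change was 0.45. The mean shift of the 12 genes from their shNC level was 0.39 and 0.45 on the log2 scale in shTrem2 replicates 1 and 2 and -0.08 in replicate 3, while the shNC libraries lay between -0.02 and 0.04. Within the arm, the amino acid supply genes were shifted by 0.50, 0.58 and 0.22 in shTrem2 replicates 1 to 3, and the stress effectors by 0.25, 0.26 and -0.51. Genes of a role differed, since Trib3 and Chac1 lay above every shNC library in replicates 1 and 2, and Asns and Phgdh below every one in replicate 3. The roles were set with earlier results of these data known, so this split is a description and was not tested. Without shTrem2 replicate 3, the number of DEGs with higher levels went from 4 to 9 among the 34 genes and from 3 to 7 in the ATF4 arm, the arm's median went to 0.62, and the share of all tested genes called higher by the same criteria was 8.87%.

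**Figure D3:**
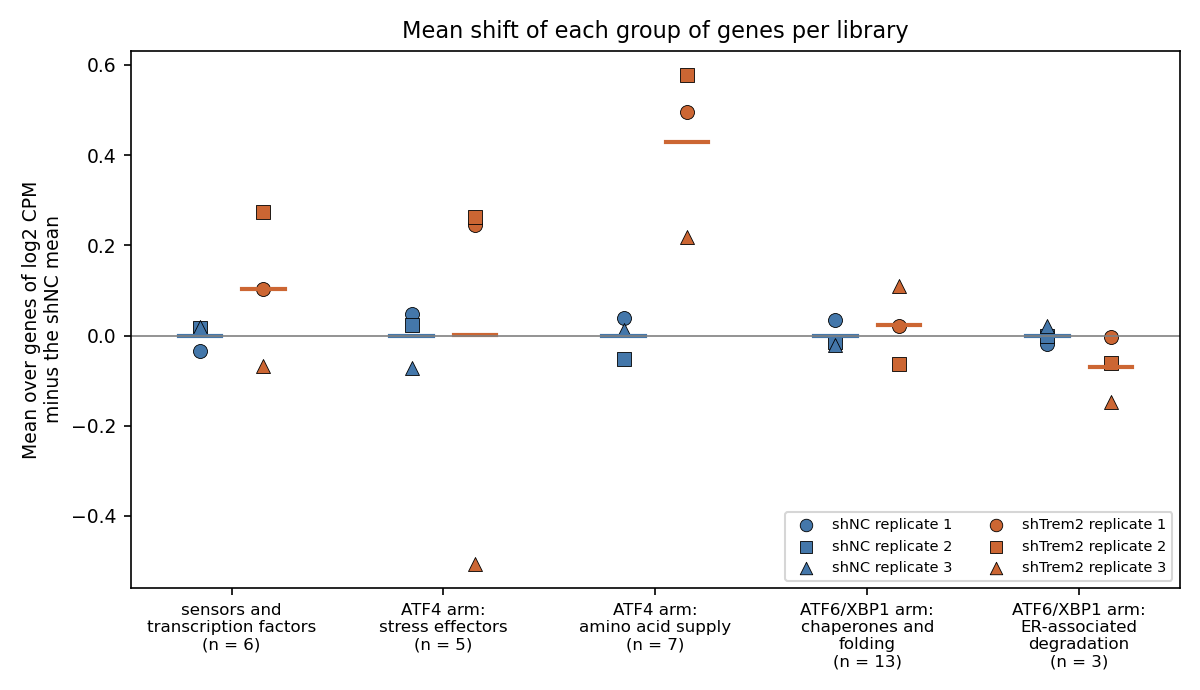
Mean over the genes of each role of log2 CPM minus the gene's shNC mean, for each library (blue, shNC; orange, shTrem2; marker shape, replicate) with a horizontal line at the mean of the 3 libraries of a group. The amino acid supply genes lie between 0.22 and 0.58 in shTrem2, and the stress effectors reach from 0.26 down to -0.51 in shTrem2 replicate 3.

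Promoter sequence was described because members of an arm can share response elements. The members were chosen as known genes of each arm, so a shared element can follow from that choice. RefSeq windows from 250 bases before to 50 bases after the start site (GRCm38.p6) were found for 30 of the 34 genes, in 32 windows, and not for Atf6, Hyou1, Manf and Slc7a5. Searched on both strands, the C/EBP-ATF response element bound by ATF4, with the letters TGATGNAA, was in 3 of the 12 ATF4-arm windows and in 3.97% of all 32851 windows of the table. The 3 sites are shown with the matched letters in capitals, 5′ to 3′ on the strand of the gene, and a match on the opposite strand reads TTNCATCA. The first base of the match was at -23 from the start site in Asns, at -193 in Chac1 and at 15 in Trib3.
Asns (chr6:7693214-7693243, minus strand): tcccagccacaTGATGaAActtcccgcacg
Chac1 (chr2:119351038-119351067, plus strand): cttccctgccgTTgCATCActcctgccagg
Trib3 (chr2:152344028-152344057, minus strand): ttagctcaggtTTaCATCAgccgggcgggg
None of these 3 genes was a DEG with all 6 libraries, although Chac1 rose at an FDR under 0.05. Without shTrem2 replicate 3, Chac1 and Trib3 were DEGs. No match to these letters lay in the windows of Shmt2 and Psat1, which were DEGs with all 6 libraries. Nor did 1 lie in those of Mthfd2, Slc3a2, Phgdh, Ddit3, Ddit4 and Ppp1r15a, which were not DEGs. A match describes letters in a window and not a bound site, and the absence of a match says nothing about ATF4 at these genes. The cyclic AMP response element TGACGTCA was found in the window of Ppp1r15a and in 1.79% of all windows.

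The ATF6/XBP1 arm held genes that rose and genes that fell. Of its 16 genes 4 rose (25.0%) and 4 fell (25.0%) at an FDR under 0.05, shares close to the 28.8% and 28.6% of all tested genes. None was a DEG, 6 lay above and 10 below a log2 fold change of 0, and the median was -0.06. The 4 that rose were Calr, Pdia3, Hsp90b1 and Herpud1, and the 4 that fell were Sdf2l1, Manf, Edem1 and Sel1l. All 8 changes were under 1.5-fold, and DESeq2 and limma-voom also gave 0 DEGs in this arm, where at an unadjusted p under 0.05 in edgeR 4 were higher and 6 lower. The number that fell was 7 with upper quartile scaling, with library size only and without shTrem2 replicate 3, with 4 rising under either scaling.

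Calr and Pdia3 work together on glycoproteins, the first as a lectin chaperone that binds calcium and the second as the disulfide isomerase that it recruits. Calr was at 599, 597 and 563 CPM in shNC and at 796, 683 and 868 CPM in shTrem2, a 1.33-fold rise without overlap (log2 fold change 0.42, SE 0.070, adjusted p = 1.87e-04). Pdia3 was at 614, 601 and 612 CPM in shNC and at 789, 750 and 862 CPM in shTrem2, a 1.31-fold rise without overlap (log2 fold change 0.39, SE 0.052, adjusted p = 2.23e-05). Hsp90b1 (GRP94), the HSP90 of the ER, was at 1173, 1132 and 1114 CPM in shNC and at 1318, 1248 and 1403 CPM in shTrem2. Its groups did not overlap, and the rise was 1.16-fold (log2 fold change 0.22, SE 0.050, adjusted p = 0.00231). For all 3 genes the highest library was shTrem2 replicate 3, the library in which the ATF4-arm genes were lowest among the shTrem2 libraries, and the 3 rises passed also without it, at log2 fold changes of 0.33, 0.33 and 0.16.

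Sdf2l1, a partner of the ER HSP40 Dnajb11, fell 1.27-fold. It was at 102, 94.5 and 88.5 CPM in shNC and at 71.0, 65.8 and 86.6 CPM in shTrem2, with replicate 3 of shTrem2 just below the lowest shNC library (log2 fold change -0.35, SE 0.086, adjusted p = 0.00348). Manf, a secreted ER stress-induced factor, fell 1.09-fold from 215 ± 1.63 to 196 ± 9.23 CPM (SD, n = 3; log2 fold change -0.13, adjusted p = 0.0275). The Manf call was lost without shNC replicate 2 (adjusted p = 0.072) or 3 (0.0542) and without shTrem2 replicate 1 (0.0843) or 2 (0.107). The other 8 chaperones and folding factors did not pass, with log2 fold changes from -0.12 for Hspa5 to 0.19 for Creld2. Hspa5 (BiP), the main ER HSP70 and the usual marker of the unfolded protein response, was at 1327, 1264 and 1221 CPM in shNC and at 1156, 1107 and 1246 CPM in shTrem2. Replicate 3 of shTrem2 lay within the shNC range and the other 2 below it (adjusted p = 0.0684). Without that replicate, Hspa5 (log2 fold change -0.18, adjusted p = 0.00400), Hyou1 (-0.16, 0.00835) and Pdia6 (-0.16, 0.00494) passed as lower, and the 3 also passed with library size only (adjusted p = 0.0228 for Hspa5, 0.0299 for Hyou1 and 0.0181 for Pdia6).

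ER-associated degradation returns misfolded proteins to the cytosol for the proteasome. Of its 3 genes 1 rose (33.3%) and 2 fell (66.7%) at an FDR under 0.05, beside 28.8% and 28.6% of all tested genes. Herpud1, a membrane protein of the HRD1 ligase complex, was at 69.3, 68.8 and 74.7 CPM in shNC and at 93.9, 90.9 and 72.2 CPM in shTrem2. Replicate 3 of shTrem2 lay within the shNC range (log2 fold change 0.27, SE 0.084, adjusted p = 0.0131). The call was lost without shNC replicate 2 (0.0614), shTrem2 replicate 1 (0.0788) or shTrem2 replicate 2 (0.053), and on FPKM with either pseudocount (0.0959 and 0.0940). With shTrem2 replicate 3 left out, the log2 fold change of Herpud1 was 0.37 (adjusted p = 7.75e-05). Sel1l, the adaptor of the same ligase, was at 181, 186 and 177 CPM in shNC and at 157, 146 and 147 CPM in shTrem2. Its groups did not overlap and it fell 1.21-fold (log2 fold change -0.27, SE 0.047, adjusted p = 2.20e-04). Edem1, a lectin that hands misfolded glycoproteins to degradation, was at 527, 534 and 541 CPM in shNC and at 462, 455 and 475 CPM in shTrem2. It fell 1.15-fold with a clear gap between groups (log2 fold change -0.20, SE 0.042, adjusted p = 9.64e-04).

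The ER stress response element (ERSE), through which ATF6 acts with NF-Y, was searched as CCAAT and CCACG with any 9 bases between them, on both strands. It was in 7 of the 14 ATF6/XBP1-arm windows (50%), in none of the 12 ATF4-arm windows, in none of the 6 windows of sensors and transcription factors, and in 0.119% of all windows. With any base allowed in the first place of CCACG, which includes every ERSE, Ddit3 was added, and 0.265% of all windows held a match. Hsp90b1 held it at 2 places. The sites are shown because 7 members of 1 arm shared this element. Capitals mark the CCAAT and CCACG boxes, which read CGTGG and ATTGG where the match is on the opposite strand.
Hspa5 (chr2:34772020-34772049, plus strand): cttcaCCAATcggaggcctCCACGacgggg
Hsp90b1, nearer site (chr10:86705527-86705556, minus strand): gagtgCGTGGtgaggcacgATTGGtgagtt
Hsp90b1, farther site (chr10:86705632-86705661, minus strand): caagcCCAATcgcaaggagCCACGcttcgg
Calr (chr8:84847069-84847098, minus strand): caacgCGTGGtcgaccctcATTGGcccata
Canx (chr11:50325794-50325823, minus strand): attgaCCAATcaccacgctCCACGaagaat
Creld2 (chr15:88819515-88819544, plus strand): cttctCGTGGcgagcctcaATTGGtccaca
Dnajc3 (chr14:118937822-118937851, plus strand): cacaaCCAATcagcgccaaCCACGacccgg
Pdia6 (chr12:17266486-17266515, plus strand): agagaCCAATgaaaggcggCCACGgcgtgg
The first base of the match lay between -212 and -65 from the start site. Of these 7 genes, 2 rose (Calr and Hsp90b1), none fell and 5 did not pass at an FDR under 0.05. Of all tested genes 28.8% rose and 28.6% fell. The median log2 fold change of the 7 was 0.09. At an unadjusted p under 0.05 in edgeR, 2 of the 7 were higher and 2 lower (Hspa5 and Pdia6). Hspa5 and Pdia6 also fell at an FDR under 0.05 without shTrem2 replicate 3. The other 9 genes of the arm include Hyou1 and Manf, which had no window and were not searched. Of these 9, 2 rose and 4 fell (Manf among the latter) at that FDR, and the same numbers at the unadjusted p, with a median of -0.11. Hyou1 also fell without shTrem2 replicate 3. No test was run on this split.

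Herpud1 held none of the spaced ERSE but the related ERSE-II, ATTGG and CCACG with 1 base between them, found in 12 of all 32851 windows (0.0365%), and also the C/EBP-ATF response element. Its 2 sites are shown because they join the elements of both arms in 1 window, with the matched letters in capitals and first bases at -112 and -52.
Herpud1, C/EBP-ATF element (chr8:94386306-94386335, plus strand): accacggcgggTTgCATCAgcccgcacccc
Herpud1, ERSE-II (chr8:94386368-94386397, plus strand): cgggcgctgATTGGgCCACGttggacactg
Herpud1 was 1 of 2 genes of its arm that were lowest of the shTrem2 libraries in replicate 3, and the other, Dnajb9, held no match to any of the motifs searched. The XBP1-bound core TGACGTGG was in none of the 32 windows and in 0.676% of all windows.

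Levels of different genes were compared on the length-scaled FPKM of the authors. In shNC the highest were Hspa5 at 539 ± 29.9 FPKM, Hsp90b1 at 463 ± 18.5 FPKM and Manf at 333 ± 11.7 FPKM (SD, n = 3), and the lowest were Eif2ak3 at 7.25 ± 0.307 FPKM and Ern1 at 7.20 ± 0.508 FPKM. Eif2ak3 and Ern1 did not differ beyond their spread. The third sensor, Atf6, was at 46.1 ± 0.849 FPKM, above the chaperones and folding factors Creld2 (40.0 ± 0.769 FPKM), Dnajc3 (15.2 ± 1.17 FPKM) and Dnajb9 (8.77 ± 0.744 FPKM) and below the other 10 of that role. In shTrem2 the order at the top was turned, with Hsp90b1 at 521 ± 30.5 FPKM and Hspa5 at 486 ± 33.4 FPKM, a gap close to their spread. Calr went from 325 ± 10.5 to 426 ± 49.4 FPKM, Atf4 from 177 ± 8.72 to 268 ± 28.9 FPKM, Shmt2 from 162 ± 3.33 to 267 ± 28.3 FPKM and Xbp1 from 132 ± 4.83 to 97.8 ± 6.25 FPKM.

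**Figure D4:**
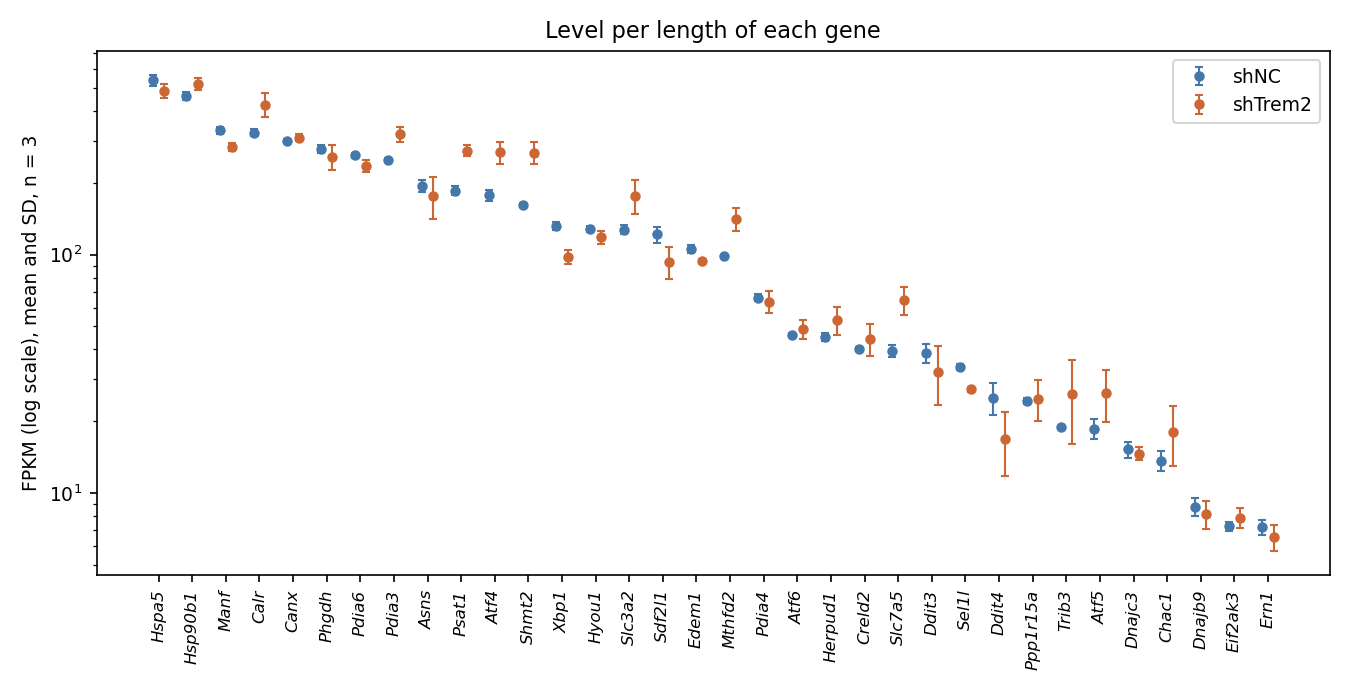
Level per length of each gene, as the mean and SD (n = 3) of FPKM on a log axis, in shNC (blue) and shTrem2 (orange), ordered by the shNC mean. Hspa5 (539 FPKM in shNC) and Hsp90b1 (463 FPKM) lead, and Eif2ak3 and Ern1 lie lowest at about 7 FPKM.

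Lists of further genes of the same pathways gave a mixed picture. The counts of every list stand beside 28.8% of all tested genes higher and 28.6% lower at an FDR under 0.05. They were taken over all 6 libraries, and how far they rest on shTrem2 replicate 3 was not tested. Of 29 other known ATF4 targets, 26 were tested, and 10 rose (38.5%) and 9 fell (34.6%) at that FDR. Their median log2 fold change was 0.10. By fold, the 3 largest DEGs of that list were all lower in shTrem2. Gdf15, a stress-induced hormone, had 1.87 ± 0.301 CPM in shNC cells and 0.417 ± 0.319 CPM in shTrem2 cells (log2 fold change -2.15, adjusted p = 7.43e-04). In shTrem2 replicates 1 and 3 it was at 0.209 and 0.258 CPM, near the 0.154 and 0.153 CPM that 3 counts make there, so the size of its fall is uncertain. The death receptor Tnfrsf10b (-1.45, adjusted p = 1.67e-05) and the proline synthesis enzyme Pycr1 (-1.30, adjusted p = 7.85e-06) also fell. The 3 DEGs of the list that rose, named after their values were seen, were all amino acid transporters, Slc7a1 (0.89, adjusted p = 6.12e-08), Slc1a4 (0.84, adjusted p = 1.02e-04) and Slc7a11 (0.73, adjusted p = 1.07e-05). The other 3 DEGs that fell, also named after their values were seen, were Aldh1l2 (-1.28), Cth (-0.93) and Cebpg (-0.82). These are a folate enzyme, an enzyme of cysteine synthesis and a dimer partner of ATF4. For Pycr1, Slc7a1, Slc1a4, Slc7a11, Aldh1l2 and Cth the lowest shTrem2 library was replicate 3. For Gdf15, Tnfrsf10b and Cebpg it was not.

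Aminoacyl-tRNA synthetases charge tRNAs with amino acids and include many ATF4 targets. Of 20 such genes, 11 were higher (55%) and 3 lower (15%) at an FDR under 0.05, beside 28.8% and 28.6% of all tested genes. Their median was 0.20, with 0 DEGs (12 higher and 4 lower at an unadjusted p under 0.05 in edgeR). The eIF2 kinases and the subunits of eIF2 and its exchange factor had 6 of 16 higher and 4 lower, with a median of 0.08. Of 44 other genes of ER folding and translocation tested, 13 were higher and 16 lower with a median of -0.01, and the 3 largest DEGs, the prolyl isomerases Fkbp7 (-1.52, adjusted p = 9.95e-05), Fkbp14 (-1.09, adjusted p = 9.06e-04) and Fkbp11 (-0.91, adjusted p = 1.72e-05), were lower. Of 29 other genes of ER-associated degradation tested, 10 were higher and 7 lower, with a median of 0.10. Its 3 DEGs were Wfs1 (-1.20), Ubxn8 (1.09) and Creb3l2 (-0.66). Mitochondrial chaperones and proteases (3 of 10 higher and 2 lower) had a median of 0.05. Cytosolic heat shock genes (0 of 12 higher and 4 lower, or 0 and 5 at an unadjusted p under 0.05 in edgeR) had a median of -0.06, with Hspa4l as the 1 DEG (-0.87). In the deposited annotation, 19 of the 34 genes belonged to the KEGG pathway for protein processing in the ER. Of its other 133 tested genes, 44 rose (33.1%) and 36 fell (27.1%), with a median of 0.04.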

How the data were processed

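The authors deposited estimated counts, 1 value for each transcript in each library (79.3% of those above 0 not whole), and FPKM values per gene, which the authors scaled for length and depth. According to the submitters' processing notes and the study's methods, reads were trimmed with fastp, aligned with HISAT2 and assembled with StringTie, and the build was GRCm39. Versions and the counting tool are not given in the sources used here. The authors' group means were not used, and the annotation columns were used only for symbols and KEGG membership.

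The counts were added up over the transcripts of a symbol, then rounded. Rows without a symbol (0.908% to 1.12% of counts) entered neither library sizes nor tests. The counts of named rows were 15876119 to 19655165 per library, so that 0 counts allow up to 3, or 0.153 to 0.189 CPM, a limit that covers counting error only. The symbol Ddit3 covered 2 gene identifiers. Genes were tested with edgeR 4.0.16 under R 4.3.3 (TMM scaling, filterByExpr with the group, glmQLFit, glmQLFTest) on all 6 libraries without covariates, over 13528 genes, and SEs were taken from the F statistic. A DEG needed an FDR (Benjamini-Hochberg) under 0.05 with a change over 1.5-fold, the criteria of the study. The fit was tested on simulated data. No pair of libraries of a group agreed within counting noise (chi-square per degree of freedom 2.56 to 9.92), so none was treated as a library deposited again. This does not show that the libraries came from separate cultures.

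Members, roles and gene lists were chosen with earlier results of these data known. Values in every library were to be given for the 6 sensors and transcription factors and the 4 largest absolute log2 fold changes of each other role, and in other lists the 3 largest DEGs were to be named. Beyond this rule, Hspa5 was given in every library as the usual marker of the unfolded protein response, and Aqp1 as the only tubular marker tested. Lyz2, Adgre1 and Itgam were named to describe the sum of the macrophage markers. Further names are marked, or given by range, mean or fold change.

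Promoter windows and their coordinates came from RefSeq (GRCm38.p6), a build other than that of the counts, and no coordinate of the counts was used. Protein sequences were not analysed here. Alternatives were DESeq2 1.42.0, limma 3.58.1 (voom, and trend on log2 FPKM with a pseudocount of 1 or 0.1), RLE, upper quartile and library size scaling, other filters (1 count in all, 10 counts in every library), the replicate number as a block, an offset for effective length (count divided by FPKM), each library left out in turn, and other thresholds.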

Additional observations from a re-analysis of the deposited data

How the results depend on the processing

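Of the 34 genes, 4 were DEGs with higher and 0 with lower levels. With 1 library left out in turn, 2 to 9 were higher and 0 to 1 lower, the 9 being without shTrem2 replicate 3 and the 2 without shTrem2 replicate 2. In the ATF4 arm 2 to 7 were higher (3 with all libraries) and 0 to 1 lower, the 1 being Ddit4, and among sensors and transcription factors 0 to 2 were higher (1 with all libraries). The cause of these differences was not tested. With no fold threshold, 12 of the 34 were higher and 7 lower, 6 and 1 in the ATF4 arm, 4 and 4 in the ATF6/XBP1 arm and 2 and 2 among sensors and transcription factors. At that threshold the 7 lower became 11 with no filter beyond 1 count and 4 without shNC replicate 2, and the 1 lower in the ATF4 arm became 3 with no filter and 0 with DESeq2, on FPKM or with the offset for effective length. With a fold change over 2, the number higher was 0 in all, in the ATF4 arm and among sensors and transcription factors. The median of the ATF4 arm lay between 0.31 and 0.62 and that of the ATF6/XBP1 arm between -0.10 and -0.01 over all alternatives. Under each scaling the median over all tested genes stayed within 0.1 of 0.

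Directions that turned belonged to genes that did not pass, with a library left out. Over the 6 such fits the log2 fold change ranged from -0.0157 (without shTrem2 replicate 2) to 0.0925 for Eif2ak3, from -0.0105 (without shTrem2 replicate 2) to 0.204 for Ppp1r15a, from -0.261 to 0.0172 (without shTrem2 replicate 3) for Asns, from -0.0824 to 0.0300 (without shTrem2 replicate 2) for Dnajc3, and from -0.0972 to 0.0596 (without shTrem2 replicate 2) for Pdia4. The sign also turned without shNC replicate 3 for Ppp1r15a and Pdia4, without shNC replicate 1 for Dnajc3 and without shTrem2 replicate 1 for Pdia4.

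Replicate numbers are shared by the groups, but same-numbered libraries did not deviate together (correlations 0.006, -0.004 and 0.007), so the numbers were not taken to pair libraries. With the replicate number as a block, 4 of the 34 were again DEGs with higher and 0 with lower levels, and over all genes 2911 were DEGs in place of 2951. Trib3 passed with the block (log2 fold change 0.40, adjusted p = 0.0489), and no other of the 34 calls changed.

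With 3 libraries a group, the depth left Gdf15 (1.87 CPM in shNC, SE of its log2 fold change 0.430) as the least precise gene named.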
